A study of Mus musculus with 10 samples.

Results

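The transcripts described here encode the nuclear subunits of mitochondrial respiratory chain complexes I to IV, measured in the lungs of newborn ICR mice raised in high oxygen or in room air. The mitochondrial chain passes electrons from NADH (complex I) and succinate (complex II) through complex III to oxygen at complex IV, and complexes I, III and IV pump protons as they do so. Most subunits are encoded in the nucleus and imported, while the core of each proton pump holds subunits made from mitochondrial DNA. Some complex IV subunits have isoforms that are made in muscle, lung or testis. In lung, the chain is known as a source of reactive oxygen species during hyperoxia.

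Genes were chosen by name, as those whose single annotated symbol begins with Ndufa, Ndufb, Ndufc, Ndufs, Ndufv, Uqcr, Cox4, Cox5, Cox6, Cox7 or Cox8, or is Sdha, Sdhb, Sdhc or Sdhd, without the Ndufaf assembly factors. Of 65 such genes on the array, with 138 probe sets, 63 passed the filter (a log2 intensity of 5 or more on at least 2 arrays) and are the subunits counted here, out of 14989 genes kept in all. They comprise 35 of 36 genes with complex I names, all 4 of complex II, all 8 of complex III and 16 of 17 of complex IV. The 2 genes outside the filter were Ndufb4, at 4.0 to 4.74 over the 10 arrays, and Cox7b2, a testis isoform, at 3.66 to 4.02. Inside it but near the filter were Cox7a1, at 5.73 to 7.62, and Cox4i2, at 6.02 to 7.79. Genes of these names with no probe set annotated to them alone were not analysed here. Ndufa4 and Ndufa4l2 are counted with complex I by their names, although the Ndufa4 protein is now placed in complex IV.

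The study used hyperoxia as a mouse model of bronchopulmonary dysplasia (BPD), the chronic lung disease of preterm infants given oxygen. Pups were pooled within hours of birth and assigned at random to 80% oxygen (BPD) or room air (called WT in the labels) until postnatal day 14 (P14) or day 29 (P29), and nursing dams were rotated daily between exposures. Total RNA of whole dissected lung was hybridised to Affymetrix mouse expression arrays, with 3 P14 BPD, 2 P14 WT, 3 P29 BPD and 2 P29 WT arrays. All groups share the ICR strain and carry no engineered allele in the labels. Whether the arrays of a group are separate animals is not stated in the labels, and p-values therefore measure the spread between these samples alone, which may be technical. Whole lung was measured, so fewer cells of a type and less RNA per cell cannot be told apart.

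Arrays of the same group correlated at 0.993 to 0.996 over all genes kept, and arrays of different groups at 0.935 to 0.983. Lung markers were high in all groups, with the alveolar type 2 list averaging 12.33 to 13.44 and the club cell list 11.85 to 13.44 on the log2 scale. Some measures stood apart with the exposure. The actin control probes read the 3' end above the 5' end where RNA is broken or copied short, and this gap was 1.75 ± 0.30 on BPD arrays and 0.53 ± 0.17 on WT arrays (SD, n = 6 and 4, exact permutation test, two-sided, p = 0.00952, the smallest this design allows). Sex-linked transcripts had the male pattern on all P14 arrays and the female pattern on both P29 WT arrays. Of the P29 BPD arrays, replicate 1 had the male pattern and replicate 2 the female one, while in replicate 3 Xist was found together with Y-linked transcripts. Markers of other cells also moved with the exposure. Their counts are to be read beside those of all genes. Of all genes, 32.3% rose and 22.8% fell at P14, and 34.2% rose and 25.5% fell at P29. Of 7 proliferation genes measured, 5 rose at P14 and 7 at P29 (medians 0.45 and 2.52). The 7 T and B lymphocyte markers all fell at both ages (medians -0.84 and -1.74). Of 9 endothelial markers 1 rose and 4 fell at P14, and 0 rose and 6 fell at P29. The 5 neutrophil markers fell at both ages (medians -1.15 and -1.78), as did 4 and then 5 of 8 alveolar type 2 markers. All 5 club cell markers and 7 of 8 ciliated cell markers rose at P14 (medians 1.07 and 0.92), and 1 ciliated marker fell. At P29, 3 club and 4 ciliated markers rose, and 1 of each list fell. Of 7 macrophage markers, 2 rose and 3 fell at P14, and 0 rose and 4 fell at P29. The part of these cells in the subunit values was not tested.

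Promoter windows of the RefSeq annotation (GRCm38.p6, 250 bases upstream of the start site) were given for 50 of the 63 subunits. Nuclear respiratory factor 1 (NRF1) and GA-binding protein (GABPA) are transcription factors known to act on promoters of respiratory chain genes, and YY1 is known for a role in the same genes. On either strand, the NRF1 core (GCGCA, then N for any base, then GCGC) was found in 6 of the 50 windows (12%), against 3.86% of 27025 genes with a window. The GABPA core CCGGAAG was found in 8 (16%), against 7.05%, and the YY1 core AAGATGGC in 0, against 1.59%. These are matches of letters and say nothing of whether a factor was bound. The stretches of 170 bases upstream of the start site are shown, 5' to 3' on the gene's strand, for the genes with the most NRF1 matches, Sdha (GRCm38.p6, chr13:74350241-74350410, minus strand) and Cox6a1 (chr5:115348959-115349128, minus strand), and for the muscle isoform Cox7a1 (chr7:30184001-30184170, plus strand), whose hyperoxia effect differed most between the ages and whose stretch holds none of the 3 cores. Capitals mark the NRF1 cores in Sdha and Cox6a1 and, in Cox6a1 near the start site, a GABPA core on the opposite strand.
Sdha: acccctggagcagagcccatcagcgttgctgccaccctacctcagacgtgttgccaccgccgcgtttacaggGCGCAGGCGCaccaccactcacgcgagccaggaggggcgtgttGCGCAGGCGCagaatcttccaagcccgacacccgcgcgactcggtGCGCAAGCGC
Cox6a1: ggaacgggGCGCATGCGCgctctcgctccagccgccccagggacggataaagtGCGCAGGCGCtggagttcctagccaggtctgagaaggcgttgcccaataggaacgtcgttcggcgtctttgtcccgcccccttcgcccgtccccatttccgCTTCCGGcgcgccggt
Cox7a1: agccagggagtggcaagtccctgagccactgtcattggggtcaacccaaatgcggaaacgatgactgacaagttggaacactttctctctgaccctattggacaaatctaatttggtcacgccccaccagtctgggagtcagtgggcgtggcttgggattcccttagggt

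The first comparison asked how hyperoxia had altered the subunit transcripts by P14. Of the 63 subunits, 29 rose in P14 BPD lungs, 12 fell and 22 did not pass the test (limma, adjusted p under 0.05 over all genes tested), beside 32.3% of all genes that rose and 22.8% that fell. The median log2 fold change of the subunits was 0.17, against 0.04 over all genes and 0.10 over the 1044 genes with a mean of 11 or more, the range in which many subunits lie. Of those bright genes 36.5% rose and 17.1% fell. In 32 subunits all BPD arrays lay above all WT arrays, and in 17 below, beside 39.6% and 31.7% of all genes. The complexes did not share a direction. Complex I had 21 rises and 3 falls among 35 (median 0.29), complex II 1 and 2 among 4 (median -0.24), complex III 1 and 2 among 8 (median -0.09) and complex IV 6 and 5 among 16 (median 0.09).

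By P29, 31 subunits rose, 6 fell and 26 did not pass the test, beside 34.2% and 25.5% of all genes. Sex-linked patterns were mixed on the P29 BPD arrays and female on both P29 WT arrays, so sex was not balanced in this comparison. The median log2 fold change was 0.22, against 0.04 over all genes and 0.14 over the bright genes, of which 42.6% rose and 21.5% fell. All BPD arrays lay above all WT arrays in 38 subunits and below in 12, beside 41.2% and 33.1% of all genes. Complex I had 22 rises and 1 fall (median 0.27), complex II 0 of either, also at an unadjusted p under 0.05 (median -0.05), complex III 3 and 1 (median 0.04) and complex IV 6 and 4 (median -0.06). The comparisons at P14 and P29 share no arrays, but they share a common estimate of the spread. The actin gap stood apart with the exposure at both ages. The rises common to both ages numbered 25, of 29 at P14 and of 31 at P29, and the falls 5, of 12 and of 6. In opposite directions 0 subunits were called. Over all 14989 genes kept, 218 rose at P14 and fell at P29, and 179 fell at P14 and rose at P29. The shared rises were 86.2% of those at P14 and 80.6% of those at P29, beside 69% and 65.2% over all genes, and the shared falls 41.7% and 83.3%, beside 62.4% and 55.5%.

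Both sets of counts moved with the actin control and with the choice of probe set. With that actin gap as a covariate of the fit, 3 of the 29 rises and 3 of the 12 falls at P14, and 4 of the 31 rises and 3 of the 6 falls at P29, kept their calls, while over all genes 5.39% then rose and 3.86% fell at P14, and 10.9% rose and 8.53% fell at P29. The complex I median was 0.23 at P14 and 0.26 at P29 in that fit. The gap ran from 1.3 to 2.2 on BPD arrays and from 0.3 to 0.7 on WT arrays. Its part and that of the exposure therefore cannot be told apart, whether a call was kept or lost. With plain probe sets, whose names end in _at alone, taken first for each gene, 19 of 62 subunits rose at P14 and 16 at P29, beside 29.9% and 31.3% of all genes, and the subunits' median log2 fold changes were -0.06 and 0.00. Without P14 WT replicate 1, which left 1 WT array at that age, fewer subunits rose at P14, in complex I too, as did fewer of all genes. Scaling each array to its 75th percentile moved the median of all genes to -0.06 at P14 and -0.09 at P29 and the share of rises among all calls to 45% and 41.2%, from 58.6% and 57.2%, while the subunits' medians became 0.07 and 0.09, that of complex IV at P14 became -0.01 and that of complex III at P29 -0.09.

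**Figure D1:**
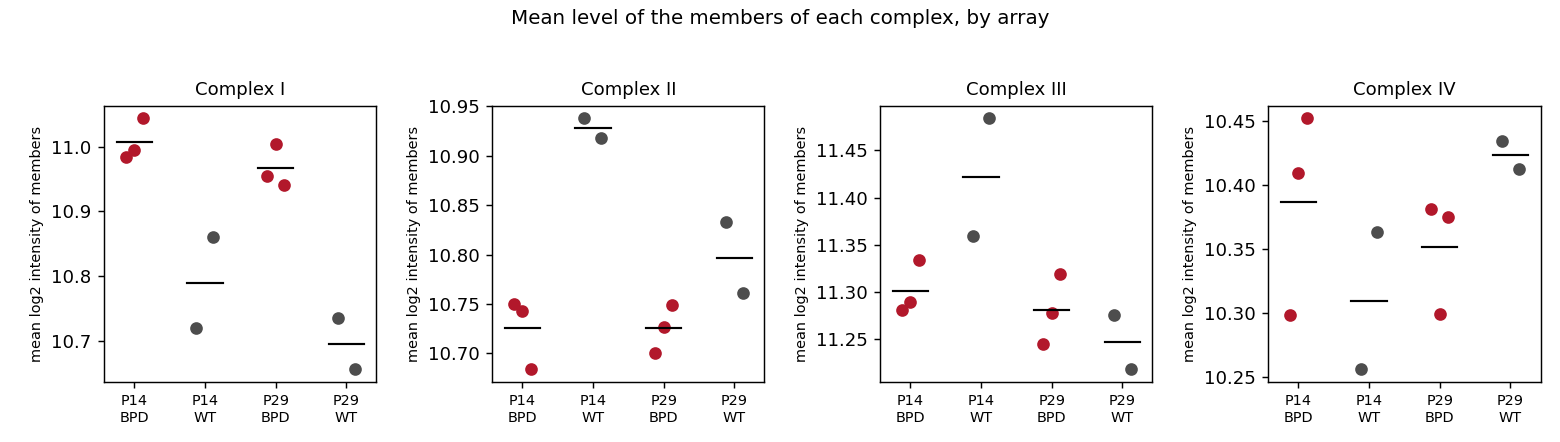
Mean log2 intensity of the subunits of each complex (y axis) on each of the 10 arrays, by age and exposure (x axis). Points are arrays and lines are group means. All BPD arrays lie above the WT arrays of their age for complex I and below them for complex II, on the brightest probe sets. For complex II at P29 the margin is small, with the highest BPD array at 10.749 and the lowest WT array at 10.761. None of the 4 genes passed the test there, and second probe sets gave 0.29 for Sdha, -0.51 for Sdhc and 1.08 for Sdhd.

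In complex I, many genes of the membrane arm rose together on their brightest probe sets. Most of the 12 Ndufb and Ndufc genes encode accessory subunits of that arm. At P14, 11 rose (91.7%) and 0 fell (median 0.39), beside 32.3% and 22.8% of all genes. At P29, 10 rose (83.3%) and 0 fell (median 0.35), beside 34.2% and 25.5%. An unadjusted p under 0.05 gave no fall at either age. This pattern depended on the probe set. With plain _at probe sets first 3 rose and 3 fell at P14 (median -0.13), beside 29.9% and 23.6% of all genes. Under that rule 3 rose and 2 fell at P29 (median -0.01), beside 31.3% and 26.3%. With the mean of all probe sets 3 rose at P14 and 6 at P29, beside 26.2% and 28.3%. With the actin covariate 2 rose at each age, beside 5.39% and 10.9%. Fewer also rose at P14 without P14 WT replicate 1 and at P29 without P29 WT replicate 2, as over all genes. Ndufb3, which has 1 probe set, was at 11.30, 11.31 and 11.22 on P14 BPD arrays, against 10.64 and 10.63 on P14 WT arrays, and at 11.37, 11.45 and 11.24 on P29 BPD arrays, against 10.83 on both P29 WT arrays. All BPD values lay above all WT values of the same age, and the log2 fold changes were 0.64 ± 0.08 (SE, adjusted p = 9.68e-05) at P14 and 0.52 ± 0.08 (adjusted p = 0.000277) at P29.

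Ndufb1, a small membrane subunit, was at 7.48, 7.21 and 7.23 on P14 BPD arrays, against 6.82 and 6.78 on P14 WT arrays. Its groups did not overlap, and it rose by 0.51 ± 0.10 (SE, adjusted p = 0.00135) at P14 and by 0.33 ± 0.10 (adjusted p = 0.0133) at P29, a call lost without P29 WT replicate 2. Ndufc2, which has a part in assembling the membrane arm, rose by 0.60 ± 0.08 and 0.56 ± 0.08 at P14 and P29, with 0.05 and -0.00 from its plain probe set. Ndufb6 rose most at P29, with 11.40, 11.26 and 11.41 on BPD arrays, against 10.44 and 10.35 on WT arrays, a change of 0.96 ± 0.12 (SE, adjusted p = 7.14e-05), although its plain probe set gave -0.20 at P14 and -0.11 at P29. At P14 its values were 11.38, 11.30 and 11.47 in BPD lungs, against 10.56 and 11.04 in WT lungs, where the WT arrays differed more from each other than the BPD arrays did, and the change was 0.58 ± 0.12. Ndufb2, at 0.09 ± 0.09 and 0.22 ± 0.09, was the one of the 12 that passed the test at neither age.

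The Ndufs and Ndufv genes encode most of the nuclear core subunits and several accessory ones of the peripheral arm, where NADH is oxidised. Of 9, 4 rose (44.4%) and 0 fell at P14 (median 0.12), beside 32.3% and 22.8% of all genes. At P29, 5 rose (55.6%) and 0 fell (median 0.24), beside 34.2% and 25.5%. At an unadjusted p under 0.05, 1 fell at P14 and 0 at P29. With 75th percentile scaling or quantile normalization 3 rose and 2 fell at P14, and 2 rose and 1 fell at P29. Of all genes, 25.9% or 27.4% then rose and 31.7% or 24.7% fell at P14. At P29, 25.6% or 28.8% of all genes rose and 36.6% or 27.6% fell. Ndufs1, the large iron-sulfur subunit near the NADH site, was at 10.14, 10.17 and 10.11 on P14 BPD arrays, against 9.56 and 9.51 on P14 WT arrays, and at 10.06, 10.09 and 9.98 on P29 BPD arrays, against 9.65 and 9.61 on P29 WT arrays. BPD and WT values did not overlap at either age, and the changes were 0.60 ± 0.07 (SE, adjusted p = 7.16e-05) and 0.41 ± 0.07 (adjusted p = 0.000644). The rises of Ndufb3 and Ndufs1 kept their calls at both ages under each of the 23 alternatives run, as did Ndufb1 at P14 and Cox7c at P29. Ndufb1, Ndufb3 and Ndufs1 have 1 probe set each, so the probe set rules could not move their values. Leaving out an array of the other age cannot move a fold change either.

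Ndufv2, an iron-sulfur subunit beside the flavin site, rose by 0.27 ± 0.07 at P14 and 0.24 ± 0.07 at P29, and Ndufs4, whose loss causes a mitochondrial encephalopathy in mice, by 0.23 ± 0.07 and 0.31 ± 0.07. The P14 call of Ndufv2 was lost without P14 WT replicate 1 and that of Ndufs4 without P14 WT replicate 1 or 2 or P14 BPD replicate 2, and both P29 calls were lost without P29 WT replicate 1. Ndufs7 carries the last iron-sulfur cluster before ubiquinone. Its brightest probe set gave 0.75 ± 0.12 at P14 and 0.60 ± 0.12 at P29, but its other probe set gave -0.50 and -0.53, both called lower. Ndufs3, a core subunit, passed at P29 (0.29 ± 0.11, a call kept under 13 of the 23 alternatives), with 0.04 ± 0.11 at P14. Ndufs5, Ndufs8, Ndufv1 and Ndufv3 passed at neither age, although with plain probe sets first Ndufv1 was at -0.31 and -0.34, both called lower.

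The Ndufa genes were mixed. Of 14, 6 rose (42.9%) and 3 fell (21.4%) at P14 (median 0.17), beside 32.3% and 22.8% of all genes. At P29, 7 rose (50%) and 1 fell (7.14%), with a median of 0.20, beside 34.2% and 25.5%. Ndufa5, an accessory subunit of the peripheral arm, was at 11.08, 11.22 and 11.35 on P14 BPD arrays, against 10.25 and 10.52 on P14 WT arrays. The groups were apart, with a change of 0.83 ± 0.11 (SE, adjusted p = 0.000125) at P14, the largest among complex I rises at that age, and of 0.70 ± 0.11 (adjusted p = 0.000295) at P29. Its other probe set gave 0.19 at P14 and 0.01 at P29, and the calls were lost with plain probe sets first. Ndufa2, an accessory subunit near the NADH-oxidising tip, rose by 0.73 ± 0.10 and 0.80 ± 0.10, and Ndufa12, at the joint of the arms, by 0.63 ± 0.08 and 0.57 ± 0.08, the P29 call of Ndufa12 being lost with plain probe sets first (0.16). Ndufa7 and Ndufa8 fell at P14, by 0.25 ± 0.07 and 0.30 ± 0.07, and were at -0.04 ± 0.07 and -0.06 ± 0.07 at P29, and the Ndufa7 call was lost without P14 WT replicate 2.

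**Figure D2:**
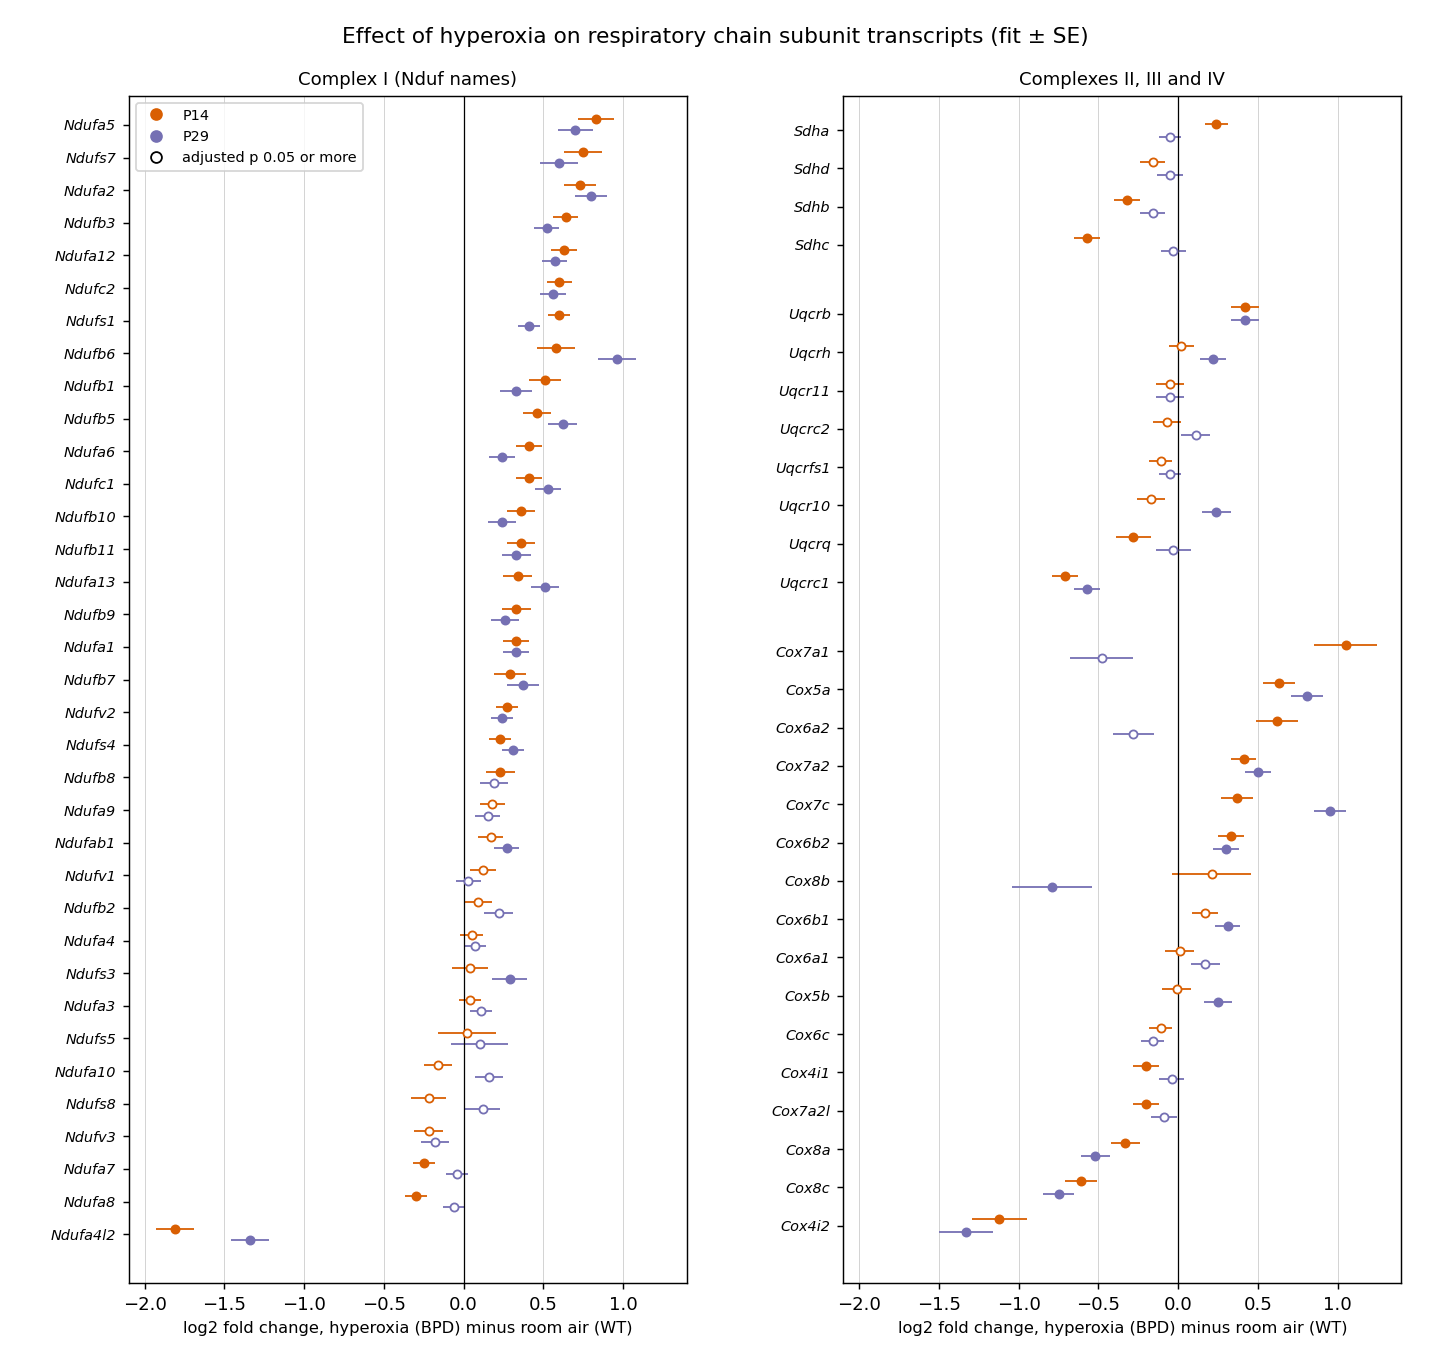
Log2 fold change of BPD over WT lungs (x axis, fit ± SE) for each of the 63 subunits (rows, ordered by the P14 value within each complex), at P14 (orange) and P29 (purple). Filled points passed the test. On these brightest probe sets the Ndufb and Ndufc genes lie right of 0 at both ages, and Ndufa4l2 and Cox4i2 lie furthest left.

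The largest falls were in a pair of isoform genes tied to oxygen supply. Ndufa4l2 is the hypoxia-inducible relative of Ndufa4 and is known to lower complex I activity when induced, and Cox4i2 is the lung-enriched isoform of the complex IV subunit Cox4, with a part in acute oxygen sensing. Ndufa4l2 was at 7.97, 8.19 and 8.28 on P14 BPD arrays, against 9.98 and 9.94 on P14 WT arrays, and at 7.87, 7.73 and 8.12 on P29 BPD arrays, against 9.16 and 9.33 on P29 WT arrays. Every BPD array lay more than 1 log2 unit below every WT array of its age. The changes were -1.81 ± 0.12 (SE, 3.51-fold lower, adjusted p = 1.97e-06) at P14 and -1.34 ± 0.12 (2.54-fold lower, adjusted p = 7.05e-06) at P29.

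Ndufa4, by contrast, was at 11.32, 11.33 and 11.38 on P14 BPD arrays, against 11.34 and 11.26 on P14 WT arrays, and its changes were 0.05 ± 0.07 and 0.07 ± 0.07 at P14 and P29, neither past the test. Cox4i2 was at 6.26, 6.55 and 6.64 on P14 BPD arrays, against 7.67 and 7.52 on P14 WT arrays, and at 6.02, 6.20 and 6.49 on P29 BPD arrays, against 7.34 and 7.79 on P29 WT arrays. Its groups were apart at both ages, with changes of -1.12 ± 0.17 (SE, 2.17-fold lower, adjusted p = 0.000249) and -1.33 ± 0.17 (2.51-fold lower, adjusted p = 5.75e-05). The ubiquitous isoform Cox4i1 fell by 0.20 ± 0.08 (adjusted p = 0.046) at P14, a call lost under 16 of the 23 alternatives, and was at -0.04 ± 0.08 at P29. The falls of Ndufa4l2 and Cox4i2 kept their call under all 23 at both ages. The actin term was among them, although the actin gap and the exposure cannot be told apart here. Ndufa4l2 and Cox4i2 have 1 probe set each, so the probe set rules among the 23 could not move their values.

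Both genes are known as pericyte-enriched in mouse lung, and a list of 10 pericyte and smooth muscle markers was set beside them. At P14, 2 of the 10 rose and 2 fell, beside 32.3% and 22.8% of all genes. At P29, 2 of the 10 rose and 4 fell, beside 34.2% and 25.5%. The list's mean level was 10.30 to 10.42 on P14 BPD arrays, against 10.18 to 10.39 on P14 WT arrays, and 9.95 to 10.29 on P29 BPD arrays, against 9.94 to 10.26 on P29 WT arrays. Higd1b, itself a pericyte gene of the family that binds complex IV, fell by 0.68 ± 0.08 and 0.66 ± 0.08 at P14 and P29. Cspg4, the NG2 proteoglycan of pericytes, rose by 0.52 ± 0.13 and 0.54 ± 0.13, Rgs5 rose by 0.88 ± 0.30 and 2.49 ± 0.30, and the receptor Pdgfrb fell by 0.37 ± 0.12 at P14 and was at 0.05 ± 0.12 at P29. The part of pericyte number in the falls was not tested.

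Complex II, which links the citric acid cycle to the chain, had falls in 2 subunits and a rise in 1 at P14. Sdhc, a membrane anchor, was at 10.13, 10.19 and 10.12 on P14 BPD arrays, against 10.76 and 10.66 on P14 WT arrays. The groups were apart, and Sdhc fell by 0.57 ± 0.08 (SE, adjusted p = 0.000239). The iron-sulfur subunit Sdhb fell by 0.32 ± 0.08 (adjusted p = 0.00493), and the flavoprotein Sdha rose by 0.24 ± 0.07 (adjusted p = 0.0144). With 75th percentile scaling or quantile normalization complex II had 0 rises and 3 falls at P14. Of all genes, 25.9% or 27.4% then rose and 31.7% or 24.7% fell. The Sdha call was also lost without P14 WT replicate 2. The other anchor, Sdhd, gave -0.16 ± 0.08 from its brightest probe set and 0.87 from its other one, which was called higher. At P29 none of the 4 passed, with Sdha at -0.05 ± 0.07, Sdhb at -0.16 ± 0.08, Sdhc at -0.03 ± 0.08 and Sdhd at -0.05 ± 0.08. These are values of the brightest probe sets, and the second probe sets gave 0.29 for Sdha, -0.51 for Sdhc and 1.08 for Sdhd at P29, with no overlap of the groups in any of them.

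In complex III the core protein Uqcrc1 went down while the small subunit Uqcrb went up. Uqcrc1 was at 10.28, 10.29 and 10.31 on P14 BPD arrays, against 10.99 and 11.02 on P14 WT arrays, and at 10.23, 10.20 and 10.21 on P29 BPD arrays, against 10.90 and 10.67 on P29 WT arrays. The 6 BPD arrays lay close together and below all 4 WT arrays. Uqcrc1 fell by 0.71 ± 0.08 (SE, adjusted p = 4.88e-05) at P14 and by 0.57 ± 0.08 (adjusted p = 0.000139) at P29.

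Uqcrb, which sits at the ubiquinone side, was at 13.54, 13.54 and 13.79 on P14 BPD arrays, against 13.16 and 13.24 on P14 WT arrays, with no overlap, and rose by 0.42 ± 0.09 at both ages (adjusted p = 0.00305 and 0.00274). Its other probe set gave 0.25 at P14 and 0.01 at P29, and with the actin covariate the changes were 0.05 and 0.07. The other core protein, Uqcrc2, was at -0.07 ± 0.09 and 0.11 ± 0.09 and passed at neither age, while a dimmer probe set of it gave 0.70 and 0.75. Uqcrq, also on the ubiquinone side, fell by 0.28 ± 0.11 at P14 (adjusted p = 0.0487), a call kept under 8 of the 23 alternatives. The hinge protein Uqcrh and the small subunit Uqcr10 rose at P29, by 0.22 ± 0.08 (adjusted p = 0.0404) and 0.24 ± 0.09 (adjusted p = 0.0465), calls kept under 8 of 23 and 9 of 22 alternatives, and lost with replicate number as a block. Uqcr11 and the Rieske iron-sulfur protein Uqcrfs1 passed at neither age, with values between -0.11 and -0.05.

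In complex IV, Cox5a, Cox7a2, Cox7c and Cox6b2 rose at both ages, and Cox4i2, Cox8a and Cox8c fell at both. Cox5a, the matrix-facing subunit next to Cox4, was at 12.24, 12.27 and 12.32 on P14 BPD arrays, against 11.48 and 11.81 on P14 WT arrays, and at 12.41, 12.24 and 12.38 on P29 BPD arrays, against 11.60 and 11.46 on P29 WT arrays. BPD values were above WT values throughout, with changes of 0.63 ± 0.10 (SE, adjusted p = 0.000505) and 0.81 ± 0.10 (adjusted p = 6.98e-05). Cox7a2, the ubiquitous isoform of Cox7a, rose by 0.41 ± 0.08 and 0.50 ± 0.08, and Cox6b2, a testis isoform, by 0.33 ± 0.08 and 0.30 ± 0.08. The P14 call of Cox6b2 was lost without P14 WT replicate 1, and that of Cox5a with plain probe sets first (0.14). Cox6b1, the ubiquitous relative of Cox6b2 that faces the intermembrane space, passed at P29 (0.31 ± 0.08), with 0.17 ± 0.08 at P14, but its other probe set gave 0.01 at P29 and the call was lost without P29 WT replicate 2. Cox5b also passed at P29 (0.25 ± 0.09), with -0.01 ± 0.09 at P14, a call kept under 11 of the 23 alternatives, and its probe set ending _a_at gave -0.48 at P14 and -0.26 at P29.

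The Cox8 subunits are single membrane helices. Cox8c, the testis isoform, was at 7.82, 7.66 and 7.82 on P14 BPD arrays, against 8.42 and 8.35 on P14 WT arrays, and at 7.77, 7.60 and 7.88 on P29 BPD arrays, against 8.42 and 8.59 on P29 WT arrays. Its groups did not overlap, and it fell by 0.61 ± 0.10 (SE, adjusted p = 0.000481) and 0.75 ± 0.10 (adjusted p = 9.5e-05). The ubiquitous Cox8a fell by 0.33 ± 0.09 at P14, a call lost without P14 WT replicate 1, and by 0.52 ± 0.09 at P29. Cox7a2l, a factor that joins complexes III and IV into supercomplexes, fell by 0.20 ± 0.08 at P14 (adjusted p = 0.0496, a call kept under 6 of the 23 alternatives) and was at -0.09 ± 0.08 at P29. Cox6c and Cox6a1 passed at neither age on their brightest probe sets, with Cox6c at -0.11 and -0.16. Their second probe sets gave 0.60 and 0.42 for Cox6c, with all BPD arrays above WT, and -0.70 and -0.39 for Cox6a1, with all BPD arrays below WT.

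**Figure D3:**
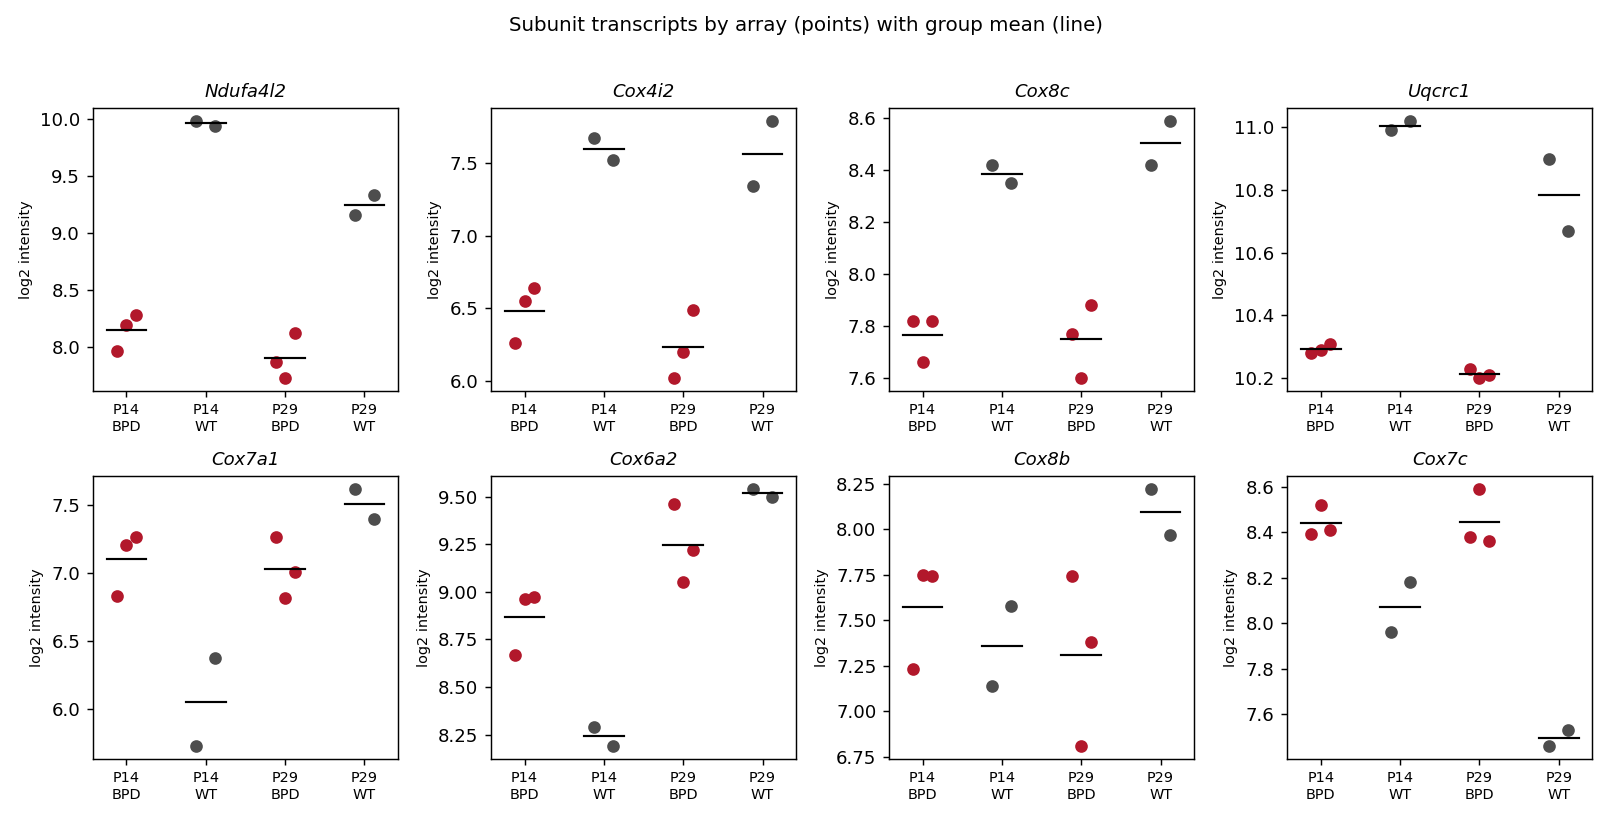
Log2 intensity (y axis, scaled to each gene) of 8 subunits on each of the 10 arrays, by age and exposure (x axis). Points are arrays and lines are group means. BPD arrays lie below WT arrays at both ages for Ndufa4l2, Cox4i2, Cox8c and Uqcrc1, and above WT at P14 but below WT at P29 for Cox7a1 and Cox6a2.

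The next comparison asked whether the hyperoxia effect differed between P29 and P14. The WT arrays had the male pattern of sex-linked transcripts at P14 and the female one at P29. Age and sex therefore cannot be told apart in this difference. The difference of effects passed the test for 5 of the 63 subunits, 3 higher and 2 lower, beside 11% of all genes higher and 11.6% lower. The lower ones were Cox7a1 and Cox6a2, the heart and skeletal muscle isoforms of Cox7a and Cox6a. Cox7a1 was at 6.83, 7.21 and 7.27 on P14 BPD arrays, against 5.73 and 6.38 on P14 WT arrays, and at 7.27, 6.82 and 7.01 on P29 BPD arrays, against 7.62 and 7.40 on P29 WT arrays. The BPD arrays lay between the younger and the older WT arrays. Cox7a1 rose by 1.05 ± 0.20 (SE, 2.07-fold, adjusted p = 0.00107) at P14, gave -0.48 ± 0.20 (adjusted p = 0.0544) at P29, and differed between the ages by -1.52 ± 0.28 (adjusted p = 0.00272).

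Cox6a2 was at 8.67, 8.96 and 8.97 on P14 BPD arrays, against 8.29 and 8.19 on P14 WT arrays, and at 9.46, 9.05 and 9.22 on P29 BPD arrays, against 9.54 and 9.50 on P29 WT arrays. Here too the BPD arrays were above WT at P14 and below WT at P29. Cox6a2 rose by 0.62 ± 0.13 (SE, adjusted p = 0.00169) at P14, gave -0.28 ± 0.13 (adjusted p = 0.0749) at P29, and differed by -0.90 ± 0.18 (adjusted p = 0.00432). Both differences kept their call under all 22 alternatives that give one, although Cox7a1 has 1 probe set, which the probe set rules could not move. Cox8b, the isoform of mouse muscle and brown fat, gave 0.21 ± 0.25 at P14, fell by 0.79 ± 0.25 (adjusted p = 0.0167) at P29, a call lost without P29 WT replicate 1, and its difference of -1.0 ± 0.35 did not pass (adjusted p = 0.0602). The ubiquitous partners Cox7a2, Cox6a1 and Cox8a had no called difference between the ages.

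Heart muscle can come with a dissected lung, and a list of its markers was set beside these isoforms. Of 14 cardiac markers, 6 rose (42.9%) and 0 fell at P14, beside 32.3% and 22.8% of all genes. At P29, 1 rose and 7 fell (50%), beside 34.2% and 25.5%. The difference of effects was higher for 1 of these markers and lower for 8 (57.1%), beside 11% and 11.6%. Their mean level was 8.72 to 9.02 on P14 BPD arrays, against 8.21 to 8.53 on P14 WT arrays, and 8.48 to 9.33 on P29 BPD arrays, against 9.30 to 9.32 on P29 WT arrays. Troponin Tnnt2 was at 9.75, 9.99 and 10.04 on P14 BPD arrays, against 8.78 and 9.03 on P14 WT arrays. At P29 Tnnt2 was at 10.17, 9.51 and 9.79 on BPD arrays, against 10.43 and 10.36 on WT arrays. This was the order of groups of Cox6a2 and Cox7a1 at each age, but other markers of the list differed. Nppa was at 9.31, 8.71 and 8.97 on P29 BPD arrays, against 5.68 and 7.56 on P29 WT arrays. Fabp3 was at 9.44, 9.74 and 9.62 on P14 BPD arrays, against 9.93 and 9.98 on P14 WT arrays. Of 13 skeletal muscle markers, the myosins Myh1, Myh2, Myh4 and Myh8 and troponin Tnnc2 were below the filter, and the other 8 averaged 5.68 to 6.06 over the 10 arrays, with 1 rise and 2 falls at P14 and 0 rises and 5 falls at P29. Of 8 fat markers, the brown fat gene Ucp1 was below the filter, and the 5 measured averaged 5.18 to 5.28 on P14 BPD arrays, against 5.33 to 5.46 on P14 WT arrays (1 rose and 2 fell), and 5.57 to 5.73 on P29 BPD arrays, against 6.83 to 7.26 on P29 WT arrays (1 rose and 4 fell). The part of muscle or fat tissue in the isoform values was not tested.

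The higher differences were in Cox7c, Sdhc and Uqcr10. Cox7c, a small membrane subunit of complex IV, was at 8.39, 8.52 and 8.41 on P14 BPD arrays, against 7.96 and 8.18 on P14 WT arrays, and at 8.38, 8.59 and 8.36 on P29 BPD arrays, against 7.46 and 7.53 on P29 WT arrays. The BPD values of the ages overlapped, while the P29 WT values were the lowest of all. Cox7c rose by 0.37 ± 0.10 (SE, adjusted p = 0.00858) at P14 and by 0.95 ± 0.10 (1.93-fold, adjusted p = 1.64e-05) at P29, with a difference of 0.58 ± 0.14 (adjusted p = 0.0123). Its other probe set gave 0.52 at P14 and 0.61 at P29, so that with plain probe sets first the difference was 0.09, and the call of the difference was lost under 3 probe set rules and without P14 WT replicate 2. The P14 rise was not called without P14 WT replicate 1. The difference was 0.54 ± 0.12 (adjusted p = 0.00749) for Sdhc, lost with the mean of its probe sets, and 0.41 ± 0.13 (adjusted p = 0.0472) for Uqcr10, kept under 9 of 21 alternatives. In complex I 0 of the 35 differences passed (limma), 3 had an unadjusted p under 0.05, and they ranged from -0.19 ± 0.10 in Ndufs1 to 0.47 ± 0.18 in Ndufa4l2. The count of 5 grew without P14 WT replicate 1 and shrank without P14 WT replicate 2, fits that leave 1 P14 WT array.

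The age comparisons asked how the transcripts changed between P14 and P29 within an exposure, and each shares arrays with the comparisons of BPD with WT. In BPD lungs 1 subunit, Cox6a2, was higher at P29 (0.38 ± 0.11, adjusted p = 0.0288) and 0 were lower (limma, 2 at an unadjusted p under 0.05), beside 15.4% and 11.7% of all genes. The Cox6a2 call was lost without P14 BPD replicate 1 and without P29 BPD replicate 1 or 3, with the actin covariate and in the fit of only the groups compared. In WT lungs 4 were higher and 15 lower at P29, beside 22.2% and 19.1% of all genes. Both P14 WT arrays had the male pattern of sex-linked transcripts and both P29 WT arrays the female one. Age and sex therefore cannot be told apart in these WT changes. The higher ones in WT were Cox7a1 (1.45 ± 0.21), Cox6a2 (1.28 ± 0.14), Cox8b (0.74 ± 0.27) and Sdha (0.33 ± 0.08). Of the lower ones, the largest changes were in Ndufa4l2 (-0.71 ± 0.14), Cox7c (-0.58 ± 0.11), Sdhc (-0.41 ± 0.09), Ndufb6 (-0.41 ± 0.14) and Ndufa10 (-0.38 ± 0.10). The Cox8b call was kept under 12 of the 23 alternatives and lost with the actin covariate. With a term for Y-linked level the calls of Sdha, Ndufa4l2, Sdhc and Ndufb6 were lost. The count of 15 was smaller without P14 WT replicate 2 or P29 WT replicate 2, as was the count over all genes. It was 3 with a term for Y-linked level, beside 12.2% of all genes.

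Several subunits have more than 1 probe set, and these did not always go the same way. Among 30 subunits with at least 2 probe sets of mean log2 8 or more, probe sets of 1 gene were called in opposite directions for Ndufb11, Ndufb5 and Ndufs7 at P14 (10%, against 10.8% of 2613 such genes) and for Ndufb11, Ndufb9 and Ndufs7 at P29 (10%, against 9.49%). In Ndufb11 the probe sets gave 0.36, 0.14 and -0.58 at P14, and 0.33, 0.24 and -0.26 at P29. In Ndufb5 they gave 0.46 and -0.34 at P14, and in Ndufb9 0.26 and -0.28 at P29. All such probe sets were called higher for Cox7a2, Ndufv2, Sdha and Uqcrb at P14 and for Cox5a, Cox7a2 and Ndufv2 at P29, and all were called lower for Sdhc at P14 and Cox8a at P29. All were called higher in 13.3% of the 30 subunits at P14 and 10% at P29, beside 17.9% and 22.3% of all such genes, and all lower in 3.33% at each age, beside 5.09% and 8.96%.

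The direction went with the type of probe set. The 34 bright subunit probe sets ending _a_at, which match several transcripts of 1 gene, had median changes of 0.26 at P14 and 0.25 at P29, and the 38 plain ones had -0.09 and -0.01. Over the bright probe sets of all genes the order was the other way, at 0.05 and 0.07 for _a_at and 0.14 and 0.15 for plain ones. Whether these probe sets report different transcript ends was not tested.

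**Figure D4:**
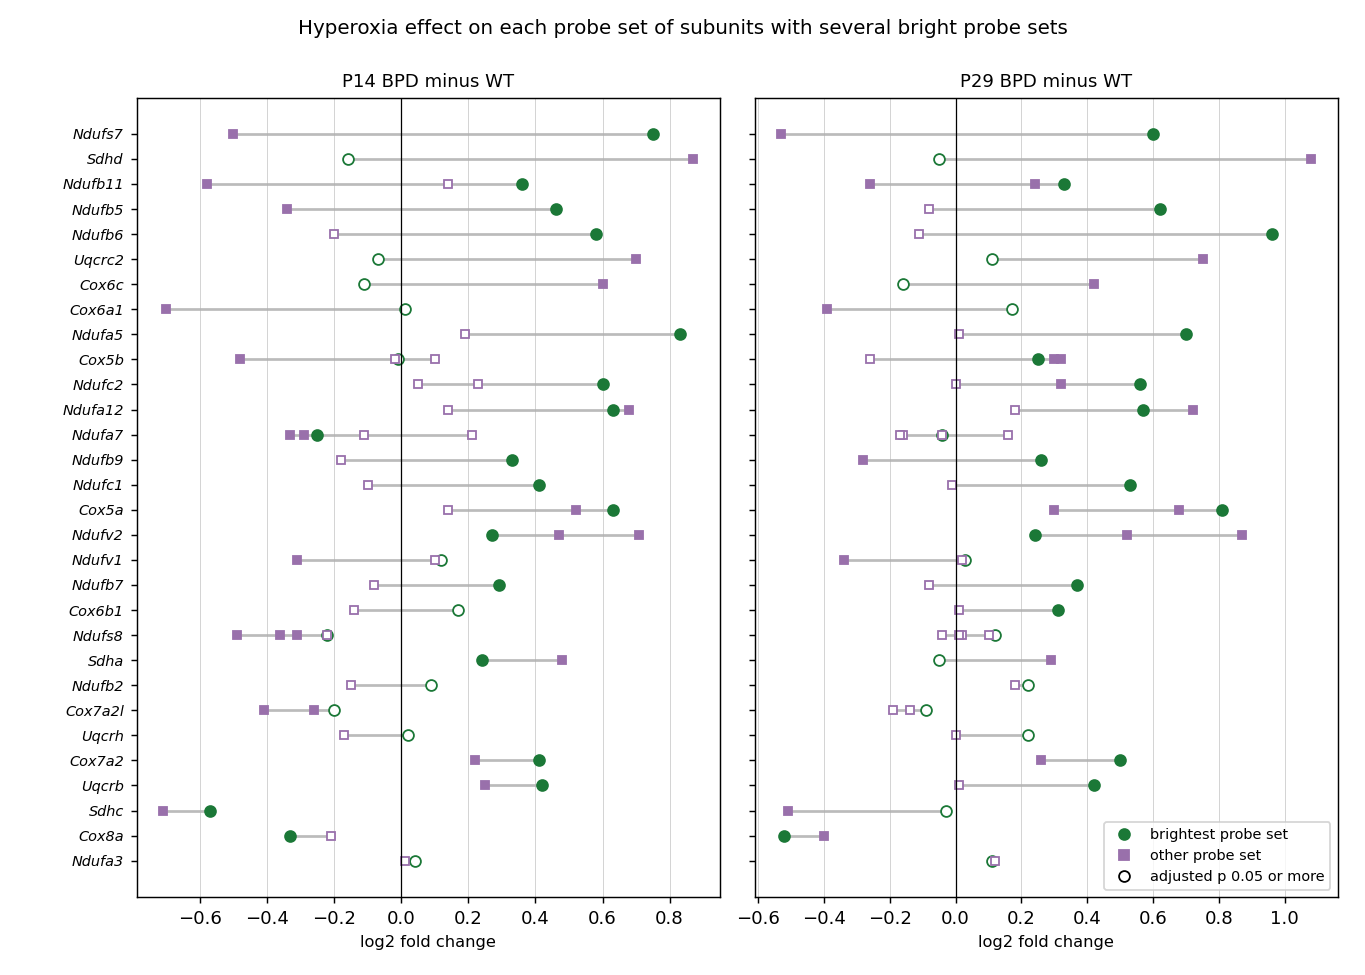
Log2 fold change of BPD over WT (x axis) for every probe set of mean log2 8 or more in 30 subunits that have several (rows), at P14 (left) and P29 (right). Green circles are the brightest probe set of each gene, purple squares the others, and filled symbols passed the test adjusted over all probe sets, so a call can differ from that of the gene. Ndufs7 has called probe sets on either side of 0 at both ages.

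The neighbouring mitochondrial genes were counted in the same fit, to be read beside the 32.3% of all genes that rose and 22.8% that fell at P14, and the 34.2% and 25.5% at P29. ATP synthase, which uses the proton gradient, had 4 rises (22.2%) and 6 falls (33.3%) among 18 measured genes at P14, and 8 (44.4%) and 2 (11.1%) at P29. There the catalytic beta subunit Atp5b fell by 0.51 ± 0.09 and 0.42 ± 0.09 at P14 and P29, and the c-subunit gene Atp5g2 fell by 0.56 ± 0.08 at P14. The inhibitor Atpif1 was at 11.35, 11.30 and 11.46 on P29 BPD arrays, against 10.24 and 10.33 on P29 WT arrays, with no overlap, and rose by 1.08 ± 0.09, after 0.44 ± 0.09 at P14. Cytochrome c (Cycs), the carrier between complexes III and IV, rose by 0.69 ± 0.10 and 0.66 ± 0.10, and cytochrome c1 (Cyc1) was at -0.11 ± 0.09 and 0.17 ± 0.09. Higd1a, a hypoxia-inducible protein that binds complex IV, rose by 0.82 ± 0.10 and 0.89 ± 0.10.

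Of 38 measured assembly factors, 11 rose (28.9%) and 6 fell (15.8%) at P14, and 21 rose (55.3%) and 4 fell at P29. The complex IV factors Cox11 and Cox17, which handle copper, rose by 0.70 ± 0.09 and 0.67 ± 0.09 at P14, and Sdhaf2 and Coa3 fell by 0.61 ± 0.08 and 0.60 ± 0.09. At P29 the complex I factors Acad9, Ndufaf4 and Timmdc1 rose by 1.24 ± 0.20, 0.96 ± 0.11 and 0.80 ± 0.11. Of 17 regulators of mitochondrial biogenesis, 7 rose (41.2%) and 1 fell at P14, and 8 (47.1%) and 1 at P29. The coactivator Ppargc1a was at 6.61, 6.63 and 6.46 on P14 BPD arrays, against 5.85 and 6.0 on P14 WT arrays, with no overlap, and rose by 0.64 ± 0.12. Tfam, which packages and transcribes mitochondrial DNA, rose by 0.49 ± 0.07 at P14, and the coactivator Pprc1 by 0.92 ± 0.11 at P29.

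Of 16 citric acid cycle and pyruvate dehydrogenase genes, 8 rose (50%) and 1 fell at P14, and 10 (62.5%) and 2 at P29. Citrate synthase (Cs) was at 11.32, 11.33 and 11.43 on P14 BPD arrays, against 10.76 and 10.78 on P14 WT arrays, with no overlap, and rose by 0.59 ± 0.09, and by 0.67 ± 0.09 at P29. Dlat, of the pyruvate dehydrogenase complex, rose by 0.72 ± 0.08 and 0.84 ± 0.08, and fumarase (Fh1) by 0.68 ± 0.07 and 0.74 ± 0.07. Of 17 membrane and import genes, 5 rose (29.4%) and 3 fell at P14, and 10 (58.8%) and 2 at P29, with the import chaperone Hspa9 up by 1.0 ± 0.09 and 0.70 ± 0.09. Subunits encoded in mitochondrial DNA had no probe set annotated to 1 gene alone and were not analysed here.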

How the data were processed

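Lung RNA of 10 samples was measured on Affymetrix arrays, and sample titles gave the group and number of each replicate. The values used are the authors' deposited log2 intensities; the submitters' processing notes name Partek 6.4 and GCRMA, without further settings. The number of arrays limits the precision.

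Genes were assigned to probe sets by the array's annotation. Of 45101, 34958 had 1 gene symbol, 932 several and 9211 none, and those with 1 were used. Each gene was represented by its brightest probe set over the 10 arrays. A gene was kept if 2 or more arrays reached log2 5, which left 14989 of 18194 and does not drop genes high in 1 group alone.

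The 4 group means were fitted together (R 4.3.3, limma 3.58.1, functions lmFit and eBayes, 6 residual and 5.09 prior degrees of freedom). Tests were two-sided, with Benjamini-Hochberg adjustment over all genes kept and a threshold of 0.05. Fold changes are differences of the deposited log2 values, with BPD over WT or P29 over P14. The fit was tested on simulated data.

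The subunits and gene lists were chosen with earlier results of these data known. Genes named were the 5 largest rises and 5 largest falls per comparison, all complex II and III genes, isoform genes, up to 4 of smallest p per complex I subgroup and per list, and genes whose probe sets were called in opposite directions. Other subunits named beside them were chosen after their values were seen. Same-numbered arrays correlated at -0.10 to 0.20 in their deviations from group means, so the numbers were not taken to pair samples. Alternatives were other filters, probe set rules, scalings, weights, fits, a replicate block, terms for the actin gap and Y-linked level, and leaving out each array. Plain _at probe sets first was chosen after seeing the data. Promoter sequences are from RefSeq (GRCm38.p6). Protein sequences were not used here.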

Additional observations from a re-analysis of the deposited data

Results flagged for a closer look

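The hyperoxia effect differed between the ages, by a test of the difference itself, for 5 subunits. Both P14 WT arrays had the male pattern of sex-linked transcripts and both P29 WT arrays the female one. Age and sex therefore cannot be told apart in these differences. The BPD effect at P29 minus that at P14 was -1.52 ± 0.28 (SE) on the log2 scale for Cox7a1 (adjusted p = 0.00272, limma) and -0.90 ± 0.18 for Cox6a2 (adjusted p = 0.00432). All 3 BPD arrays lay above both WT arrays at P14 and below them at P29 for each of these muscle isoforms. The difference was 0.58 ± 0.14 for Cox7c (adjusted p = 0.0123), 0.54 ± 0.12 for Sdhc (adjusted p = 0.00749) and 0.41 ± 0.13 for Uqcr10 (adjusted p = 0.0472). The Cox7c difference was 0.09 with plain _at probe sets first, and its call was lost there and without P14 WT replicate 2, and the Uqcr10 call was kept under 9 of 21 alternatives. On the brightest probe set of Sdhc the BPD arrays lay below WT at P14 and overlapped WT at P29. Its second probe set gave -0.71 and -0.51, with BPD below WT at both ages. The Sdhc difference lost its call with the mean of its probe sets. For Uqcr10 the BPD arrays overlapped WT at P14 and lay above WT at P29.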

How the results depend on the processing

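Of 23 alternatives, the covariate for the actin 3' to 5' gap, which moves with the exposure, lowered the counts of rises and falls in BPD lungs most. With it 3 subunits rose (3 in complex I) and 3 fell at P14, beside 5.39% and 3.86% of all genes. At P29, 4 rose (3 in complex I) and 3 fell, beside 10.9% and 8.53%. For age in BPD 0 passed with it, beside 14.2% of all genes higher and 11.6% lower. With plain _at probe sets first, 19 rose (12 in complex I) at P14, beside 29.9% of all genes. At P29, 16 rose (12) and 10 fell under that rule, beside 31.3% and 26.3%. There 3 differences of effects passed, beside 10.3% of all genes higher and 11.3% lower. With the mean of all probe sets, 13 complex I subunits rose at P14, beside 26.2% of all genes. By that mean 2 differences passed, beside 10.2% of all genes higher and 10.8% lower. For age in BPD 2 passed by that mean, beside 14.4% higher and 11.6% lower. With 75th percentile scaling 19 fell at P14, beside 31.7% of all genes. At P29, 17 rose (13 in complex I) and 14 fell under that scaling, beside 25.6% and 36.6%. With quantile normalization 10 fell at P29, beside 27.6% of all genes. For age in BPD, 2 passed with a filter at log2 7, with an intensity trend and robust fit or with array weights. Of all genes 19.1%, 16.2% and 18.3% were then higher and 15.1%, 12.7% and 14.1% lower. In the fit of only the groups compared 0 passed for age in BPD, beside 16.4% and 12.5%. That fit gave 4 falls with age in WT, beside 15.6% of all genes, and the Y-linked term gave 3, beside 12.2%. Leaving out each array in turn gave 19 to 28 rises and 8 to 11 falls at P14 (13 to 20 rises in complex I), 22 to 33 rises and 5 to 8 falls at P29 (16 to 24 in complex I), 3 to 8 differences, 0 to 1 for age in BPD, and 3 to 4 rises and 4 to 15 falls for age in WT. With replicate number as a block, 28 rose and 9 fell at P14, 26 rose and 6 fell at P29, and 6 differences passed. The numbers share no source in the labels. Falls under the block were 3 in complex IV and 1 in complex III at P14, and 1 rose in complex III at P29, where Uqcrh and Uqcr10 lost their calls.

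Signs turned with the probe set, and the cause was not tested. With plain _at probe sets first, P14 and P29 values were -0.58 and -0.26 for Ndufb11, -0.34 and -0.08 for Ndufb5, -0.20 and -0.11 for Ndufb6, -0.08 and -0.08 for Ndufb7, -0.18 and -0.28 for Ndufb9, -0.10 and -0.01 for Ndufc1, -0.50 and -0.53 for Ndufs7, and -0.31 and -0.34 for Ndufv1. Ndufb8 was at -0.24 at P14, and Ndufc2 at -0.00 at P29. Without _x_at and _s_at probe sets, P29 values were -0.00 for Ndufc2 and -0.26 for Cox5b. With the mean of all probe sets, P14 values were -0.35 for Cox6a1, 0.25 for Cox6c, -0.03 for Ndufb11, -0.01 for Ndufb8 and for Ndufb9, 0.35 for Sdhd and 0.32 for Uqcrc2, and P29 values were -0.09 for Ndufb9 and 0.51 for Sdhd. With the actin covariate Ndufb7 was at -0.05 at P14. The fit of only the groups compared has no value for the difference of effects. Dim probe sets near the filter limit what can be said of Cox7a1 and Cox4i2.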
